A study of Mus musculus with 5 samples.

Results

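Myeloid fate transcription factors were measured in sorted blood progenitors, called KLS for c-Kit, lineage markers absent and Sca-1, from mice without the Rb family. They are the 4 genes Cebpa, Cebpb, Cebpd and Cebpe of the C/EBP family, the ETS factor gene Spi1, which encodes PU.1, the interferon regulatory factor gene Irf8, and the paired repressor genes Gfi1 and Gfi1b. They were taken by name: every probe set whose platform annotation gives 1 of these 8 symbols and no other was used. That gave 10 probe sets for 7 of the 8 genes, out of 45037 probe sets and 18193 genes with a probe set of their own in all. Cebpe had no such probe set and was not analysed here.

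RNA was measured on Affymetrix mouse arrays in 3 Rb family deficient samples (Rb -/-, p130 -/-, p107 -/-) and 2 samples titled wild type (Rb +/+, p130 +/+, p107 +/-). The wild-type group thus kept 1 copy of p107, the protein encoded by Rbl1, and is no fully intact control. Both groups are labelled untreated. Recombination was switched on at 6 weeks of age with Mx1-Cre, a recombinase driven by an interferon-responsive promoter, and the labels give this step for both groups. Cells were sorted 2 months later, and strain and sex are not stated. Of 6 hybridisations the study left out 1. Whether an array stands for 1 animal or a pool is not stated, so p-values measure the spread between these samples, part of which may be technical.

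C/EBP alpha and PU.1 are known to open the granulocyte and monocyte program in blood progenitors, PU.1 also being needed for B cells. C/EBP epsilon is known to act late, in granule formation, and C/EBP beta in demand-driven granulocyte production. IRF8 directs progenitors towards monocytes and dendritic cells and restrains neutrophil output. GFI1, a zinc-finger repressor, is needed for neutrophils and restrains stem cell division, while its relative GFI1B acts in red cells and platelets. The pocket proteins RB, p107 and p130 restrain E2F factors, which bind promoters of cell cycle genes.

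Promoters are shown for Gfi1, Gfi1b, Cebpa, Cebpb and Irf8, the 5 members with an entry in the promoter sequences used here. Cebpd, Cebpe and Spi1 had no entry. The groups of arrays separated on Gfi1, Cebpa, Irf8 and Cebpb and overlapped on Gfi1b, the close relative of Gfi1. Each sequence runs from 250 bases before to 50 bases after the annotated start, 5′ to 3′ on the gene's strand, in lower case with E2F words in capitals, and comes from RefSeq on GRCm38.p6. The E2F words searched on both strands were TTTCCCGC, TTTCGCGC, TTTGCCGC and TTTGGCGC. Of the Gfi1 and Irf8 promoters, which have more than 1 annotated start, the one listed first is shown.
Gfi1 (chr5:107725756-107726055, minus strand): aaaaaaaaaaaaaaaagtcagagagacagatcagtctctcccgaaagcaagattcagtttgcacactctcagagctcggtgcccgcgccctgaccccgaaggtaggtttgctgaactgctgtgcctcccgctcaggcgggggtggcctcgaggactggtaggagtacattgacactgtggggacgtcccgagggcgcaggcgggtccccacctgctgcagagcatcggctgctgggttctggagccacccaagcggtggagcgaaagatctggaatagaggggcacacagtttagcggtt
Gfi1b (chr2:28621933-28622232, minus strand): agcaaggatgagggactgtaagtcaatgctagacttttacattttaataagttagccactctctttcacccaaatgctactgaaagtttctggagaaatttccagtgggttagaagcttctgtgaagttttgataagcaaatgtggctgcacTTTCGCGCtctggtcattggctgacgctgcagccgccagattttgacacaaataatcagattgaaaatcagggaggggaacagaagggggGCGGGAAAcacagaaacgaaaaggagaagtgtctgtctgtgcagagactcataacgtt
Cebpa (chr7:35119043-35119342, plus strand): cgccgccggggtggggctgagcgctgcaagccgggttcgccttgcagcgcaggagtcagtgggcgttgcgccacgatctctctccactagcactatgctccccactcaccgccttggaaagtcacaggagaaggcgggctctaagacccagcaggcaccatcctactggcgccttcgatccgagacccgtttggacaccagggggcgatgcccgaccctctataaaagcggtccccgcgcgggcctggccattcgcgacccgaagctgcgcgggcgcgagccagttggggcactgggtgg
Cebpb (chr2:167688665-167688964, plus strand): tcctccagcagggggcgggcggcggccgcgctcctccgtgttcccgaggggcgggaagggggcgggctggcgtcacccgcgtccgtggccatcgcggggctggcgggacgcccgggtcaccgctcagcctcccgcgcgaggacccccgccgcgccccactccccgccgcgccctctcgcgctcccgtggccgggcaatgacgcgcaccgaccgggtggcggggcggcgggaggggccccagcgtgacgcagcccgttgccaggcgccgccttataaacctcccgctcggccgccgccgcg
Irf8 (chr8:120736108-120736407, plus strand): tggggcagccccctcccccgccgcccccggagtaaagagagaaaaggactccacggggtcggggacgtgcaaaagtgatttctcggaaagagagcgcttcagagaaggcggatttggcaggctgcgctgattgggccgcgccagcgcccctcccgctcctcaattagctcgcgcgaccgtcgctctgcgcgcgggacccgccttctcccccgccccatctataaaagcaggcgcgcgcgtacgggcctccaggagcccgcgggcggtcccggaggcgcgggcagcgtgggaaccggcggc

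Of the 7 promoters listed for 5 of the members, the Gfi1b promoter alone held E2F words, with 2 of them. TTTCGCGC lay at position -98 and GCGGGAAA, the reverse complement of TTTCCCGC, at position -8. Positions are counted from the annotated start to the first base of the word. Any such word occurred in 2.26% of 32851 promoters of the same length. The promoters of Gfi1, Cebpa, Irf8 and Cebpb held none of these words in the windows searched. The letters AAATCA, part of the site described for GFI proteins, were searched on both strands and occurred in 14% of all promoters. The Gfi1b promoter held AAATCA once, and each of the 2 Irf8 promoters held its reverse complement TGATTT once. The C/EBP word TTGCNNAA occurred once, in the first Gfi1 promoter (10.8% of all promoters). The PU.1 word GAGGAA (28.3% of all promoters) was found in none of the 7, nor was the interferon regulatory element (3.44%). These matches describe the letters and are not evidence of binding.

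Several facts of the series bear on the values. Levels are log2 of the deposited intensity, and differences are deficient minus wild type on that scale. Medians of the arrays lay between 4.71 and 4.74. Rbl1, a targeted gene, read 5.15, 4.25 and 4.73 on deficient arrays and 8.33 and 7.16 on wild-type arrays on its brightest probe set (adjusted p = 0.0513). On their brighter probe sets Rb1 differed by -0.36 and Rbl2 by -0.46, with adjusted p of 0.732 and 0.473. Rb1 read 8.93, 7.77 and 8.46 on deficient arrays and 8.84 and 8.65 on wild-type arrays. Deficient 1 thus lay above both wild-type arrays for Rb1. Where these probes lie relative to the deleted parts is not given in the sources used here. Deficient 2 stood apart on sex-linked transcripts, with 12.45 for Xist and 3.50 for Eif2s3y against 5.09 and 5.51 for Xist and 10.21 and 10.37 for Eif2s3y on the other deficient arrays. Wild type 2 read high for both Xist and Eif2s3y (10.67 and 9.81), where wild type 1 read 6.12 and 9.81. Sex-linked transcripts differed within both groups, and their part in the results was not tested. Wild type 2 was also the array with 7.26 for the T cell gene Cd3g, which read between 3.57 and 3.79 on the other 4. Deficient 2 was thus no repeat of the RNA of deficient 1 or 3, nor wild type 2 of that of wild type 1.

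Markers of the sort were present in both groups: Kit read 10.88 to 11.25 on deficient and 10.83 to 11.08 on wild-type arrays, and Cd34 11.79 to 12.27 and 11.86 to 12.03. Sca-1 (Ly6a) had no probe set of its own and was not analysed here. The lineage-negative label did not hold for all transcripts. The summed level of 6 neutrophil markers was 9.37 to 10.63 on deficient and 15.48 to 15.74 on wild-type arrays, with all 6 below, where 18.6% of all genes had deficient arrays wholly below wild type and 16.5% wholly above. That of 5 B cell and plasma cell markers was 9.13 to 9.53 and 13.80 to 14.75, with 4 of 5 below. Igha (difference -7.88), Jchain (-7.48) and Ighm (-3.25), immunoglobulin genes and the chain that joins them, carry that sum. Of these, Ighm did not pass (adjusted p = 0.0707) and read 11.11 and 13.61 on the wild-type arrays. Its 11 probe sets differed by between -3.70 and 0.06. The B cell genes Cd79a and Ms4a1 did not pass either. They read 3.70 to 4.02 and 3.71 to 4.10 on deficient and 4.46 to 4.84 and 3.82 to 5.62 on wild-type arrays. For 4 monocyte and macrophage markers it was 11.24 to 11.92 and 11.55 to 12.06, with 2 of 4 below. Normalised array values have no 0, but the deficient levels of Jchain (3.56 to 4.29) lay under the array medians, as did those of Cd177 on deficient 1 and 3. In such sorted bulk samples, fewer cells of a type and less RNA per cell cannot be told apart, and the part of these markers in the results below was not tested. The summed level of 5 mast cell, basophil and eosinophil markers was 10.75 to 11.72 on deficient and 9.75 to 10.40 on wild-type arrays. Fcer1a (2.24), Mcpt8 (1.35) and Cpa3 (0.76) carry that sum and did not pass, while Prg2 fell (-1.91, adjusted p = 0.0288) and Epx differed by -0.37. For 5 T and NK cell markers it was 11.17 to 11.51 and 10.60 to 11.15, carried by Nkg7 (0.63, which did not pass). Of the other 4, Klrd1 fell (-2.36, adjusted p = 0.00201), and Cd3g (-1.82), Cd3d (-1.02) and Cd3e (-0.23) did not pass. The megakaryocyte and erythroid sums overlapped between the groups. Among the 4 megakaryocyte markers Itga2b rose (1.19, adjusted p = 0.0219), while Pf4 (-0.82), Gp1bb (0.43) and Gp9 (-0.29) did not pass.

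Cebpa and Gfi1 were higher and Irf8 was lower in all 3 deficient samples than in either wild-type sample, by about 1 log2 unit each. Spi1 and Cebpd overlapped between the groups, as did Gfi1b, while both probe sets of Cebpb read lower on every deficient array. Over all probe sets 0 of the 10 passed the threshold of an adjusted p under 0.05 (limma, Benjamini-Hochberg), where 0.164% of all probe sets were called higher and 0.326% lower. Without adjustment, 2 of the 10 were higher at p under 0.05, where 7.28% of all probe sets were, and 4 were lower, where 6.82% were. When 1 probe set per gene was tested instead, over 18193 genes, Cebpa and Gfi1 rose past the threshold (2 of 7 members), where 0.830% of genes were called higher and 1.41% lower. That fit was added after the data were seen. Their differences were the same in both fits, and the adjustment covered fewer tests. Deficient arrays lay wholly above wild type on 2 member probe sets (15.4% of all probe sets) and wholly below on 4 (15.2%), and those 4 belong to only 2 genes. The median difference of the 10 was -0.24, against 0.00 over all probe sets.

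**Figure D1:**
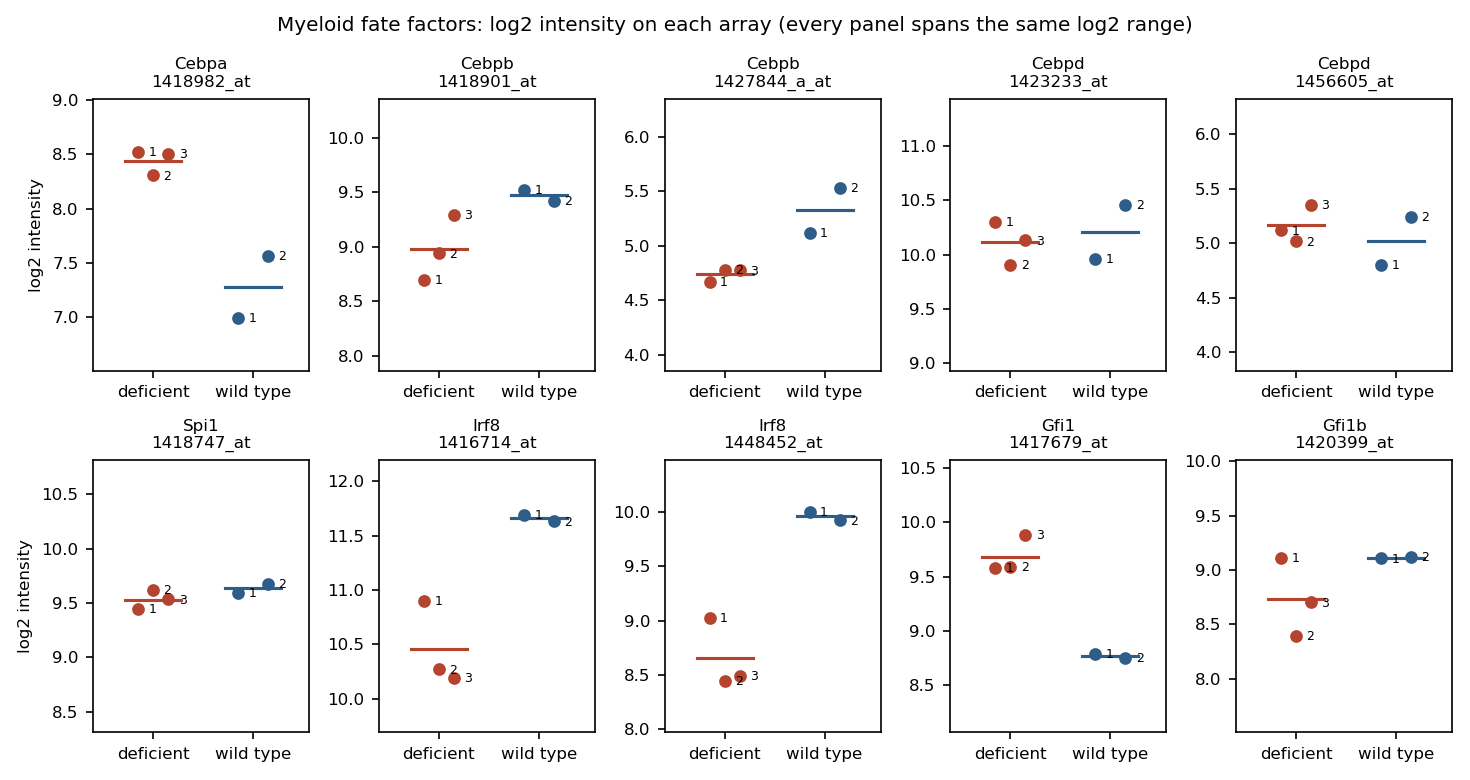
Log2 intensity of the 10 probe sets on each array, with deficient arrays (red, numbered 1 to 3) left of wild-type arrays (blue, 1 and 2) and a bar at each group mean; every panel spans the same range of log2 intensity. Deficient points lie above both wild-type points for Cebpa and Gfi1 and below both for Irf8 and Cebpb, and the groups overlap for Cebpd, Spi1 and Gfi1b.

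C/EBP alpha, the factor that starts granulocyte commitment, had the largest positive difference of the members. Cebpa (1418982_at) read 8.52, 8.30 and 8.50 on deficient arrays and 7.00 and 7.57 on wild-type arrays. The deficient arrays lay close together, and the lowest stood 0.74 above the higher wild-type array, while the wild-type arrays differed from each other by more than the deficient ones did. Means were 8.44 ± 0.12 (SD, n = 3) in deficient and 7.28 ± 0.40 (n = 2) in wild-type cells, a difference of 1.16 (SE 0.19, 95% interval 0.69 to 1.63), or 2.23-fold. The adjusted p was 0.0743 over all probe sets and 0.0439 with 1 probe set per gene. Without wild type 1, the lower array, the difference was 0.87, and without wild type 2 it was 1.44. It was 1.23 without deficient 2.

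C/EBP beta, linked to demand-driven granulocyte production, was lower. Its brighter probe set (1418901_at) read 8.70, 8.94 and 9.29 on deficient arrays and 9.52 and 9.42 on wild-type arrays, so the groups separated by only 0.13. The difference was -0.50 (SE 0.19, 95% interval -0.96 to -0.04, adjusted p = 0.315). On the dimmer Cebpb probe set (1427844_a_at), values were 4.67, 4.77 and 4.77 against 5.12 and 5.53 in wild type, for a difference of -0.59 (SE 0.15, adjusted p = 0.165). Its deficient levels lay at the array medians, where the normalisation compresses differences. Without wild type 2 the 2 probe sets differed by -0.54 and -0.38, and without deficient 2 by -0.48 and -0.61. Cebpb and Cebpa thus ran in opposite directions in every deficient sample, and Cebpb did not pass in either fit.

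C/EBP delta, known from the acute-phase response, gave no stable direction. Cebpd (1423233_at) read 10.30, 9.91 and 10.13 on deficient arrays and 9.96 and 10.46 on wild-type arrays, which bracketed 2 of the deficient values. The difference was -0.10, with a 95% interval from -0.57 to 0.38 (adjusted p = 0.897), so changes of the size measured for Cebpa lie outside this interval. The dim probe set (1456605_at) differed by 0.14 (interval -0.30 to 0.58). Both changed sign when a wild-type array was left out.

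PU.1, the factor shared by myeloid and B cell fates, had the narrowest interval of the members. Spi1 (1418747_at) read 9.44, 9.62 and 9.53 on deficient arrays and 9.59 and 9.68 on wild-type arrays. Deficient 2 fell between the wild-type arrays and the other deficient arrays lay just below them. The difference was -0.10 (SE 0.11, 95% interval -0.38 to 0.17, adjusted p = 0.775). With 1 array left out it ran from -0.15 to -0.06.

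IRF8, which directs cells to monocytes and dendritic cells, had the largest negative difference of the members and showed it on both of its probe sets. On the brighter Irf8 probe set (1416714_at), deficient arrays read 10.90, 10.27 and 10.19 and wild-type arrays 11.69 and 11.63. The other (1448452_at) read 9.02, 8.44 and 8.49 on deficient arrays and 10.00 and 9.92 on wild-type arrays. The wild-type arrays agreed closely, deficient 1 was the highest deficient array on both, and the gap between groups was 0.73 and 0.90.

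The Irf8 differences were -1.21 (SE 0.23, 95% interval -1.76 to -0.65) and -1.31 (SE 0.20, interval -1.79 to -0.83), or 0.433 and 0.404 times the wild-type level. Adjusted p was 0.0966 and 0.0634 over all probe sets, and 0.0599 for the brighter one with 1 probe set per gene. An intensity trend in the variance prior brought the second to 0.0415. Without wild type 2, the array with the Cd3g signal, the differences were -1.24 and -1.35, and without deficient 2 they were -1.11 and -1.20. B cells, monocytes and dendritic cells express Irf8, and the part of such cells in the difference was not tested. The summed B cell and plasma cell markers, carried by immunoglobulin genes, were lower in the same deficient samples (9.13 to 9.53 against 13.80 to 14.75 in wild type). Of these markers Ighm, Cd79a and Ms4a1 did not pass. The monocyte and macrophage sums overlapped (11.24 to 11.92 against 11.55 to 12.06), but their 4 markers did not run alike. Csf1r (-0.77) and Adgre1 (-0.48) lay wholly below wild type, while F13a1 (0.30) and Cd14 (-0.56) overlapped. None of these 4 passed.

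GFI1 and GFI1B, which bind the same DNA site, differed in their values. Gfi1 (1417679_at) read 9.58, 9.59 and 9.88 on deficient arrays and 8.79 and 8.75 on wild-type arrays. All deficient arrays stood above both wild-type arrays, with a gap of 0.79. Means were 9.68 ± 0.17 (SD, n = 3) and 8.77 ± 0.02 (n = 2), a difference of 0.91 (SE 0.13, 95% interval 0.58 to 1.24), or 1.88-fold. The adjusted p was 0.0615 over all probe sets and 0.0357 with 1 probe set per gene. Of the members Gfi1 had the smallest unadjusted p, 0.000513, and its difference stayed between 0.81 and 0.97 with any 1 array left out (0.90 without wild type 2 and 0.96 without deficient 2).

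Gfi1b (1420399_at) read 9.11, 8.39 and 8.70 on deficient arrays and 9.11 and 9.12 on wild-type arrays. Deficient 1 matched wild type, and deficient 2 and 3 were lower. The difference was -0.38 (SE 0.21, 95% interval -0.91 to 0.14, adjusted p = 0.524), and it was -0.21 without deficient 2 and -0.57 without deficient 1. Whether Gfi1 and Gfi1b differ from each other in their response was not tested.

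**Figure D2:**
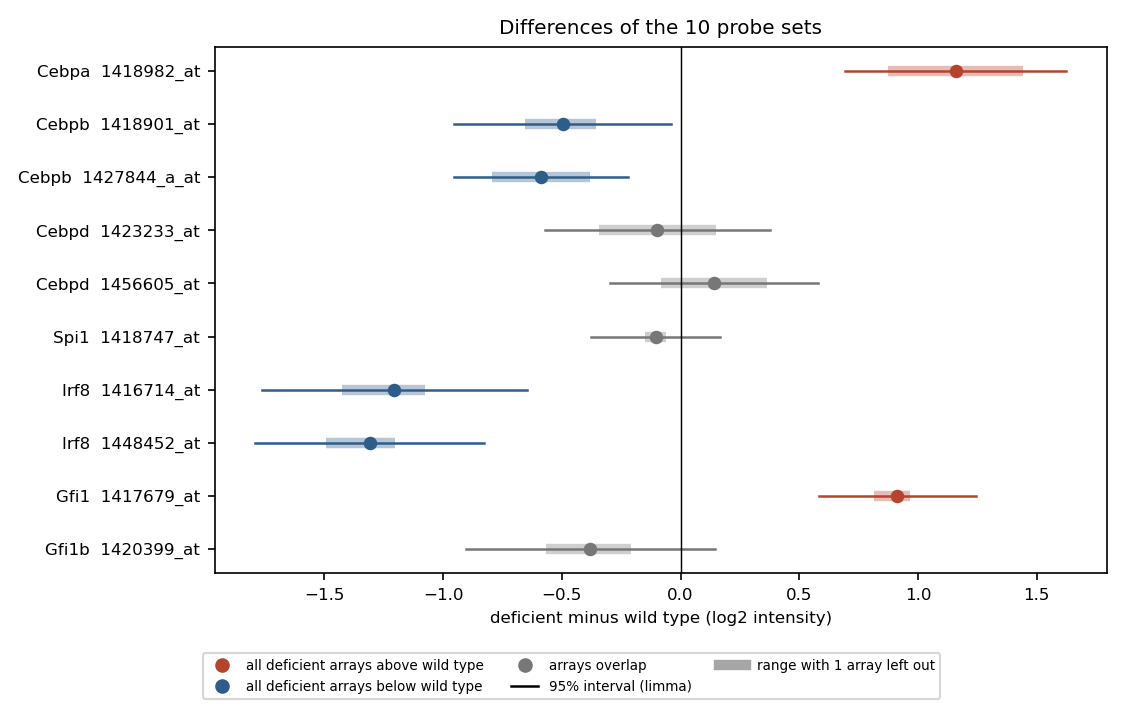
Difference (deficient minus wild type, log2 intensity) of each probe set as a point, with its 95% limma interval as a thin line and the range with 1 array left out as a thick band; red marks probe sets with all deficient arrays above wild type, blue all below, grey overlapping. Bands of Cebpa, Gfi1, both Irf8 and both Cebpb probe sets stay on 1 side of 0, as do those of Spi1 and Gfi1b, and both Cebpd bands cross it.

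**Figure D3:**
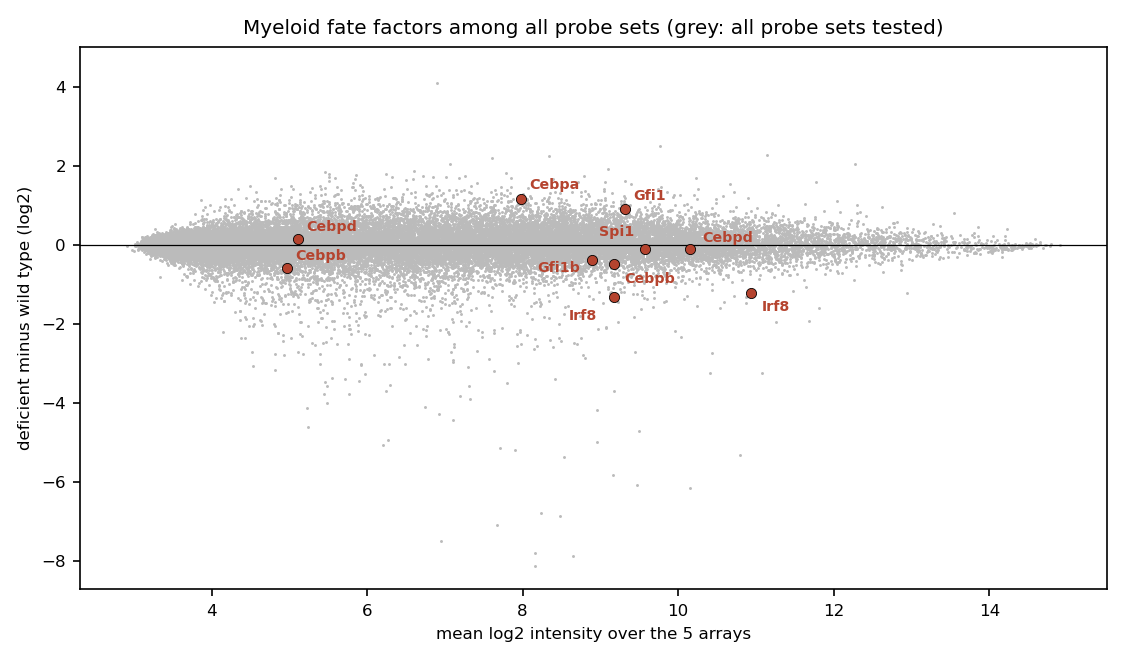
Each probe set's mean log2 intensity over the 5 arrays (x axis) against its difference, deficient minus wild type (y axis), with the members in red over all 45037 probe sets in grey. Cebpa (1.16) and Gfi1 (0.91) lie above 0 and the Irf8 probe sets (-1.21 and -1.31) below it, while Spi1 and the brighter Cebpd probe set lie at -0.10.

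The profiles most like each member's were sought among genes with a mean level of at least 6, by the root mean square distance between profiles centred on their means over the 5 arrays. For Gfi1 the nearest were Htt (0.03 log2 units), Zfp39 (0.07) and Cic (0.07). For Irf8 they were St3gal1 (0.04), Card6 (0.10) and Malat1 (0.12), and for Cebpa they were Gla (0.10), Paxip1 (0.10) and Hfe (0.11). These names are a description only, over 5 arrays and 14798 probe sets (14797 for Irf8). For Gfi1b the nearest was Ehd3 (0.05), for Spi1 Sdf4 (0.01), for Cebpb Thap3 (0.03) and for Cebpd Dalrd3 (0.04). The 2 Irf8 probe sets followed each other across the 5 arrays with a Pearson r of 0.99, against 0.73 for the Cebpb pair and 0.60 for the Cebpd pair.

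Partners and target genes of the members were read from 8 lists of 71 genes, of which 70 were measured, with 1 probe set per gene. Of the 70, 3 rose and 14 fell, where 0.830% of all genes were called higher and 1.41% lower. Of the 14, 8 belong to the late neutrophil list. The lists were chosen with earlier results of these data known, so these counts are a description only. The median difference over all genes was -0.01. Across fits with 1 array left out, between 1 and 2 of the 70 were higher and between 7 and 11 lower.

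Early myeloid genes bound or driven by C/EBP alpha and PU.1 had a median of 0.43, with 3 of 10 rising, 0 falling and 7 not passing. Csf2rb, the beta chain shared by the GM-CSF, IL-3 and IL-5 receptors, read 11.02, 10.82 and 10.87 on deficient arrays and 9.09 and 9.34 on wild-type arrays (difference 1.69, SE 0.13, adjusted p = 0.00644). Ms4a3, a marker of granulocyte-monocyte progenitors, rose by 1.58 (SE 0.24) and Ctsg, the primary granule protease cathepsin G, by 0.81 (SE 0.13), each with an adjusted p of 0.0385. Of the 5 fits that each left out an array, Csf2rb passed in 5, Ms4a3 in 1 and Ctsg in 0. The other primary granule genes, Mpo (0.39), Prtn3 (0.46) and Elane (0.81), had deficient arrays wholly above wild type and adjusted p from 0.125 to 0.188. Csf1r, the M-CSF receptor and a PU.1 target, ran the other way with -0.77 (adjusted p = 0.112). Csf3r also had deficient arrays wholly below wild type (-0.24, adjusted p = 0.398). Csf2ra differed by -0.23 and by 0.27 on its other probe set, and Il6ra by 0.04 and 0.57.

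Late neutrophil genes, which C/EBP epsilon drives, had a median of -2.54, with 8 of 11 falling and 3 not passing. Ngp, a granule protein gene, read 8.21, 7.73 and 7.11 on deficient arrays and 13.73 and 13.95 on wild-type arrays. Lcn2, which encodes lipocalin 2, read 9.39, 9.39 and 9.24 against 11.78 and 12.35 in wild type. The antimicrobial peptide gene Camp fell by 6.07 and the lactoferrin gene Ltf fell by 5.36. The differences were -3.00 for Mmp9 and -2.50 for Mmp8, both granule proteases, -1.95 for the lysozyme gene Lyz2 and -1.59 for Fcnb. Camp, Lcn2, Ngp, Mmp9 and Lyz2 passed whichever array was left out, Ltf and Fcnb in 2 of 5 such fits and Mmp8 in 1. Cybb, an NADPH oxidase subunit gene, differed by -2.54 (adjusted p = 0.0753) and by as little as -0.25 on its other probe sets. The integrin genes Itgam (3.59 to 3.80 on deficient and 3.34 to 3.66 on wild-type arrays) and Itgb2l (4.71 to 5.13 and 4.76 to 4.79) read under or near the array medians, so their values do not show whether they changed. Ngp, Camp and Ltf are also among the neutrophil markers above. The neutrophil markers summed to 9.37 to 10.63 in the same deficient samples and 15.48 to 15.74 in wild type. The level of Cebpe itself was not analysed here.

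Of 7 monocyte and dendritic genes linked to IRF8, 1 fell and 6 did not pass (median -0.48). Klf4, a monocyte factor, read 4.46, 4.16 and 4.25 on deficient arrays and 7.20 and 6.37 on wild-type arrays (difference -2.49, adjusted p = 0.0148) and passed in 3 of the 5 fits without an array. Its other probe set differed by -0.77. Mpeg1, a pore-forming protein gene of phagocytes, read 9.39, 8.33 and 8.41 against 10.53 and 10.52 in wild type (difference -1.81, adjusted p = 0.0534), with deficient 1 highest as for Irf8. Ly86 differed by -2.35 (adjusted p = 0.0685) and the cystatin gene Cst3 by -0.48 (adjusted p = 0.0925). Ccr2, a chemokine receptor of monocytes and their progenitors, had deficient arrays wholly above wild type on its brightest probe set (difference 1.00, adjusted p = 0.146) and differed by as little as 0.23 on others.

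Of 10 measured genes described as repressed by GFI1 or GFI1B, 3 fell and 7 did not pass (median -0.13). Id2, an inhibitor of E proteins, read 6.46, 6.46 and 6.37 on deficient arrays and 8.28 and 8.44 on wild-type arrays (difference -1.93, SE 0.11, adjusted p = 0.00346) and passed whichever array was left out. Its other probe sets differed by less, down to -0.22. Gata3, a T cell and stem cell factor, fell by 1.43 (adjusted p = 0.0372) and Cdkn1a, the CDK inhibitor p21, by 1.00 (adjusted p = 0.0458), and neither passed in any fit with 1 array left out. Id1, a relative of Id2, differed by 0.39 (adjusted p = 0.180), Socs1, a cytokine signalling inhibitor, by -0.35 and Tgfbr3 by 0.39, and Hoxa9 and Meis1, homeobox genes of stem cells, differed by 0.12 and -0.16.

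**Figure D4:**
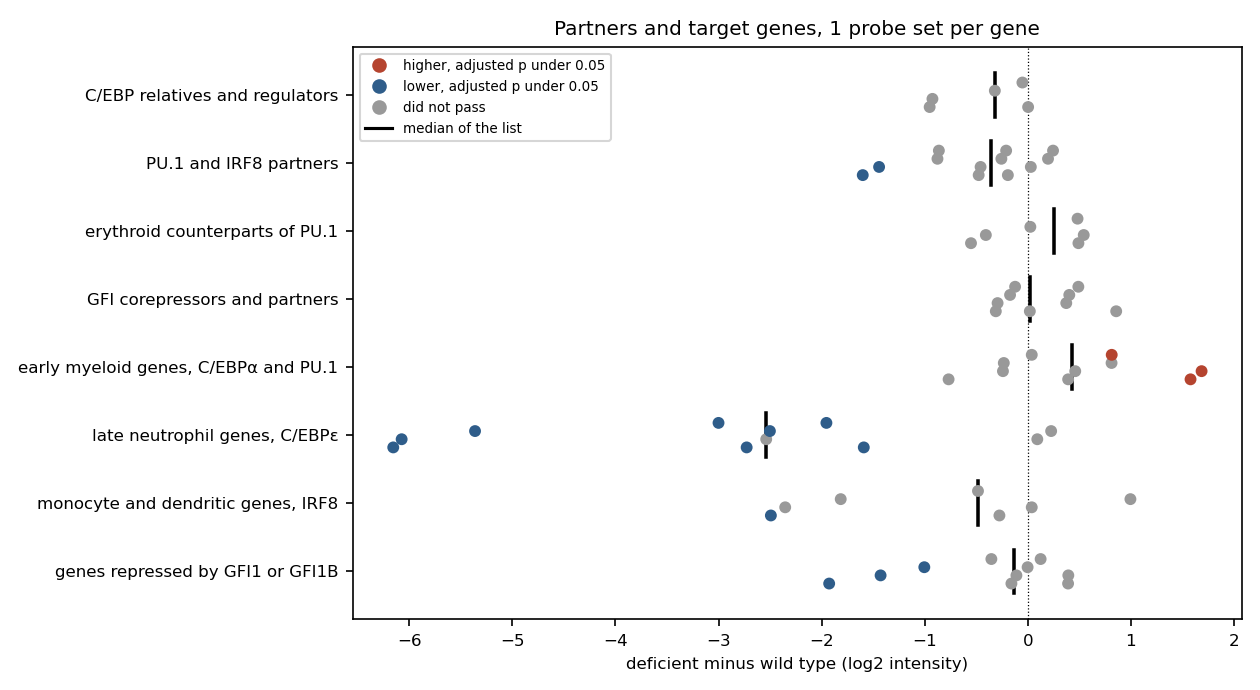
Difference (deficient minus wild type, log2 intensity) of each measured partner or target gene, by list, with red for genes called higher, blue for genes called lower at an adjusted p under 0.05, grey for the rest, and a black bar at each list's median. The early myeloid list has its median at 0.43 and the late neutrophil list at -2.54.

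The remaining lists hold partners rather than targets. Among 12 partners and cross-regulators of PU.1 and IRF8, 2 fell and 10 did not pass (median -0.36). Jun, an AP-1 factor that binds PU.1, read 7.53, 7.35 and 7.92 on deficient arrays and 9.15 and 8.93 on wild-type arrays (difference -1.44, adjusted p = 0.0272). Egr1, a zinc-finger factor of monocytes, read 9.66, 9.88 and 10.14 against 11.83 and 11.15 in wild type (difference -1.60, adjusted p = 0.0360). Jun, Egr1 and Klf4 are all immediate-early genes, and Jun and Egr1 each passed in 1 of the 5 fits without an array. Irf1, an interferon-induced relative of IRF8, differed by -0.86 (adjusted p = 0.0662), Nab2, an Egr corepressor, by -0.88 (adjusted p = 0.103), and Batf3, a dendritic cell factor, by -0.48 (adjusted p = 0.191). Of 6 erythroid and megakaryocyte counterparts of PU.1, 0 passed in limma (median 0.25), with 2 higher at p under 0.05 before adjustment, where 8.79% of all genes were higher and 9.86% lower. They were Zfpm1 (0.54), a GATA1 cofactor, and Gata2 (0.48), a stem and progenitor factor. Nfe2, a megakaryocyte factor, differed by -0.41. Gata1, which opposes PU.1, differed by 0.49 (adjusted p = 0.449).

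Of 9 corepressors and partners of the GFI proteins 0 passed in limma (median 0.02), with 3 above wild type at p under 0.05 before adjustment. These were Ehmt2 (0.37), a histone methyltransferase gene, Rcor1 (0.49), which encodes CoREST, and Hdac2 (0.40), a deacetylase gene. Probe sets disagreed for Hdac2, down to -0.32, and for Ehmt2, down to 0.07. Higher values at that level were found for 8.79% of all genes. Kdm1a, the demethylase that GFI1 recruits, differed by 0.02. Among 5 C/EBP relatives and regulators 0 passed in limma (median -0.32), with 2 lower at p under 0.05 before adjustment, where 9.86% of all genes were. Ddit3, a C/EBP relative induced by stress, differed by -0.92 (adjusted p = 0.0528) and Trib1, which promotes breakdown of C/EBP alpha, by -0.32 (adjusted p = 0.186), both below wild type on every deficient array. Trib1 lay near the array medians and differed by 0.10 on its other probe set. Trib2, with the same known role, read 8.11 on deficient 1 but 5.59 and 5.93 on deficient 2 and 3, against 7.39 and 7.59 in wild type.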

How the data were processed

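RNA of sorted KLS cells was extracted with Trizol, labelled with biotin and hybridised, per the labels' protocols. The authors made the deposited intensity values with RMA, per the submitters' processing notes (version not given in the sources used here). RMA sets arrays to a common distribution, so a shift of all transcripts would not be seen, and compresses dim differences. All 5 columns were matched to samples, with 0 of other samples, and log2 was taken here. Array number limits the precision.

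The comparison used limma 3.58.1 in R 4.3.3 (lmFit, eBayes, two-sided) over 45037 probe sets without 64 control probe sets, with Benjamini-Hochberg adjustment and a threshold of 0.05, and again with the brightest probe set of each of 18193 genes for the lists. Of the probe sets, 34945 had 1 symbol in GEO's platform annotation, 932 several and 9160 none listed. Scripts were tested on simulated data. The members, lists, motifs and named genes were chosen with earlier results of these data known. Named genes were all members, and per list the called genes and up to 3 others with the smallest p. Prtn3, Csf3r, Csf2ra, Il6ra, Ccr2, Kdm1a, Gata1, Hoxa9 and Meis1 were chosen after their values were seen. Alternatives were other normalisations, filters, variance priors, array weights, an offset of 16, a block for replicate number, leaving out each array, a threshold of 0.1 and the mean of a gene's probe sets; testing members with 1 probe set per gene was added after seeing the data.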

Additional observations from a re-analysis of the deposited data

How the results depend on the processing

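At an adjusted p under 0.1, Cebpa (1.16), Gfi1 (0.91) and both Irf8 probe sets (-1.21 and -1.31) passed, and 451 probe sets were called higher and 497 lower, against 74 and 147. With 1 probe set per gene Cebpa (1.16) and Gfi1 (0.91) passed, and with an intensity trend the second Irf8 probe set did (-1.31) and the counts were 141 and 260. An offset of 16 gave 40 and 75, and leaving out each array gave 2 to 5 and 21 to 73. In those fits listed genes called ranged from 1 to 2 higher and from 7 to 11 lower, against 3 and 14. The cause of these shifts was not tested, but fits with 1 array fewer have fewer samples. The Cebpd probe sets changed sign there, between -0.34 and 0.15 and between -0.081 and 0.37. The arrays share only a number between groups (deviations of same-numbered arrays correlated at -0.05 and -0.02), and with the replicate number as a block, 0 probe sets were called higher and 15 lower, and Cebpa read 1.13, Gfi1 0.81 and Irf8 -1.08 and -1.23. All other alternatives kept the members' directions and their side of the threshold. The 3 deficient and 2 wild-type arrays limit every value, and levels near the array medians are compressed.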
